A study of Mus musculus with 24 samples.

Results

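The guanylate-binding proteins (GBPs) described here are the products of 7 mouse genes, *Gbp2*, *Gbp3*, *Gbp4*, *Gbp5*, *Gbp6*, *Gbp7* and *Gbp9*, chosen by gene symbol with earlier results of these data known. They were 7 of 55487 genes in the count table and 7 of its 12 rows that carry a *Gbp* symbol. Reads of 6 of the 7 members were several-fold more frequent in hepatocytes that received esiRNA against *Chrebp*, alone or with esiRNA against *Bmal1*, than in hepatocytes that received a control esiRNA. *Gbp5* had 10 reads in all, too few for any test.

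GBPs are large GTPases of the dynamin superfamily and are among the transcripts that interferons induce most readily. The proteins assemble on the membranes of vacuoles that hold bacteria or parasites and on bacteria that have reached the cytosol, where they help to break the membrane open and to expose microbial products to inflammasomes. They act beside the immunity-related GTPases (IRGs), and some members carry a lipid anchor added by prenylation enzymes.

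The hepatocytes were of the established mouse line AML-12, derived from a mouse with a transgene for human transforming growth factor alpha, so the groups share this background. Each of the 6 groups had 4 BRB-seq libraries, a bulk method that counts reads from the 3′ end of mRNAs. The carrier albumin alone was given to BSA, and palmitate, a saturated fatty acid that loads the cells with fat, to PAL at 0.25 mM. The 4 remaining groups had the same palmitate and then, for the final 24 hours, endoribonuclease-prepared small interfering RNA (esiRNA), a mixture of short RNAs cut from a long double strand. CON received 200 nM against *Egfp*, a jellyfish reporter gene without a mouse counterpart. BMAL1 received 100 nM against *Bmal1*, CHREBP 100 nM against *Chrebp*, and BOTH a total of 200 nM against the pair. No source states whether the 4 libraries of a group came from separate cultures, so p-values measure the spread between these libraries, which may be technical. The number in the library names was 1 for BSA and PAL, 2 for CON and BMAL1, and 3 for CHREBP and BOTH, so this library column and *Chrebp* esiRNA cannot be told apart, nor can column and transfection in CON against PAL. The letters of the names (A to D for BSA, CON and CHREBP, E to H for PAL, BMAL1 and BOTH) were likewise aligned with palmitate or *Bmal1* esiRNA.

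Gene counts totalled 5399700 to 11237474 per library, and size factors ran from 0.707 to 1.48. All 36 pairs of libraries within a group differed by more than counting noise (chi-square per degree of freedom 2.69 to 23.1). The targeted transcripts moved modestly. *Bmal1* (listed as *Arntl*) had a log2 fold change of -0.78 in BMAL1, without a *Padj* after independent filtering, and fell by 0.98 on the log2 scale in BOTH (DESeq2 *Padj* = 0.00994). *Chrebp* (listed as *Mlxipl*) had a log2 fold change of -0.46 in CHREBP, which was not past the threshold (DESeq2 *Padj* = 0.593), and fell by 1.07 in BOTH (DESeq2 *Padj* = 0.00762).

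The members lie in 2 clusters of the GRCm38 genome, the build of the deposited counts. *Gbp2* (ENSMUSG00000028270, chromosome 3, 142620602 to 142638008), *Gbp3* (ENSMUSG00000028268, 142560026 to 142573209), *Gbp5* (ENSMUSG00000105504, 142493978 to 142522344) and *Gbp7* (ENSMUSG00000040253, 142530342 to 142550149) are protein-coding genes on the + strand of a 175.1 kb stretch. *Gbp4* (ENSMUSG00000079363, chromosome 5, 105115767 to 105139586), *Gbp6* (ENSMUSG00000104713, 105270702 to 105293698) and *Gbp9* (ENSMUSG00000029298, 105077630 to 105139539) are protein-coding genes on the - strand of a 332.3 kb stretch. The annotation overlaps *Gbp4*, *Gbp8* and *Gbp9* on the same strand, *Gbp7* with *Gm43802*, and *Gbp6* with *Gm43302*. A further check asked how far the last 500 bases of each transcript, from which 3′ reads come, are shared with another gene in windows of 50 bases. No window of *Gbp2*, *Gbp3*, *Gbp7* or *Gbp9* was shared, 6.0% of those of *Gbp5* and 6.4% of those of *Gbp4* were, and 77.8% of those of *Gbp6* also occurred in *Gm43302*. *Gm43302* had 0 reads in every library, but the treatment of reads that match 2 genes is not stated, so the values of *Gbp6* are uncertain.

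Promoter sequence from RefSeq (GRCm38.p6, 250 bases before to 50 bases after each start) was available for 4 of the 7 members, all on chromosome 3, and for their neighbour *Gbp2b*. These windows were searched on both strands for the letters GAAA, 2 bases of any kind and GAAA again (TTTC, 2 bases and TTTC on the other strand), the core of the interferon-stimulated response element (ISRE), a motif found before many interferon-induced genes. ISRE letters were present before a RefSeq start of each of the 5 genes and in 3.443% of all 32851 promoter windows. The RefSeq starts of *Gbp2* (142620663) and *Gbp5* (142496934), and the ISRE letters before them, lie inside the gene positions given above. The stretches below are shown because they hold those letters near the starts of members that rose with *Chrebp* esiRNA, of *Gbp5* and of the neighbour *Gbp2b*. Each is 90 bases, 5′ to 3′ on the + strand, and capitals mark the ISRE letters.
*Gbp2* (chr3:142620539-142620628): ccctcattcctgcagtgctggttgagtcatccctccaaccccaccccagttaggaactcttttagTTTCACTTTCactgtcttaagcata
*Gbp7* (chr3:142530218-142530307): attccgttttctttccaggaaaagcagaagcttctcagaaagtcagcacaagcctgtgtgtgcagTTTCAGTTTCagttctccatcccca
*Gbp3* (chr3:142559934-142560023): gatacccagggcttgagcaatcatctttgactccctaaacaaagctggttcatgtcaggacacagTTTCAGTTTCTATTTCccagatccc
*Gbp5* (chr3:142496704-142496793): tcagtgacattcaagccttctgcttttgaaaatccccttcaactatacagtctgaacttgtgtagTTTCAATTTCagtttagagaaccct
*Gbp2b* (chr3:142594645-142594734): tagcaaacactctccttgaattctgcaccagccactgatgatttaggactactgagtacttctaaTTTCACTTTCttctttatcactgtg
The ISRE letters began 59 bases before the RefSeq start in *Gbp2*, 53 in *Gbp7*, 165 in *Gbp5* and 137 in *Gbp2b*. *Gbp3* held 2 overlapping matches, 45 and 39 bases before the first of its 2 annotated starts, and none in the window of the second. The letters TTCNNNGAA of the gamma-activated site (GAS), another motif of interferon-induced genes, occurred 2 times in *Gbp5*, 2 times in *Gbp7* and not in the windows of *Gbp2*, *Gbp3* or *Gbp2b*, against 8.298% of all windows. No window of the 5 genes held the E-box letters CACGTG, to which BMAL1 binds with CLOCK and which 7.15% of all windows held. A match describes letters only, and no binding was measured.

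**Figure D1:**
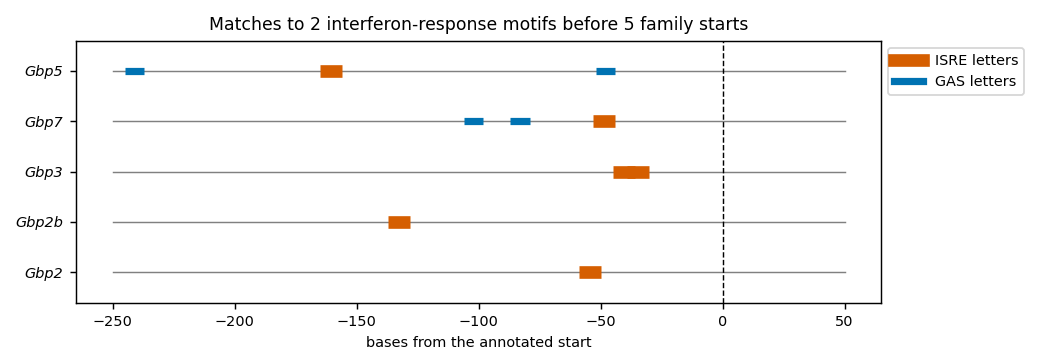
Positions of ISRE letters (orange) and GAS letters (blue) in bases from the RefSeq start (dashed line) for *Gbp2*, *Gbp2b*, *Gbp3*, *Gbp7* and *Gbp5*; grey lines span the 250 bases before and 50 bases after the start. Each gene has at least 1 ISRE match before its start, and only *Gbp5* and *Gbp7* of these 5 have GAS matches.

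Normalized read counts, scaled by the size factors of all 24 libraries, are given below for replicates 1 to 4 of each group. *Gbp2*, a prenylated GBP that is recruited to pathogen vacuoles, had 4.28, 16.4, 22.5 and 8.49 in BSA and 3.96, 14.1, 17.9 and 17.1 in PAL. It had 23.3, 124, 165 and 96.2 in CON and 36.7, 39.3, 28.7 and 35.6 in BMAL1. CON replicate 1 was below every BMAL1 library while the other 3 CON libraries were above all of them. *Gbp2* then reached 1172, 783, 650.1 and 487 in CHREBP and 1028, 1983, 1328 and 949.5 in BOTH. The lowest of these 8 libraries was above the highest of the other 16.

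*Gbp7*, a chromosome 3 member also known to reach pathogen vacuoles, had 0, 3.87, 6.31 and 8.49 normalized counts in BSA and 2.64, 10.1, 4.47 and 1.55 in PAL. In CON it had 10.8, 76.2, 79.0 and 30.1, and in BMAL1 16.3, 5.31, 8.62 and 12.8. Counts were 636, 373, 224 and 184 in CHREBP and 467, 1059.8, 708 and 183 in BOTH. *Gbp7* split much like *Gbp2*, with replicate 1 of CON inside the BMAL1 range and all CHREBP and BOTH libraries above all others. BOTH was the widest group, and its lowest library (replicate 4) was level with the lowest CHREBP library.

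*Gbp3* was close to absent without transfection, with reads in 1 of 4 BSA libraries (5.80 normalized counts) and 1 of 4 PAL libraries (3.02). Its values were 2.69, 41.1, 32.9 and 9.27 in CON and 9.50, 0, 11.5 and 12.8 in BMAL1. They were 279, 195, 140.4 and 128 in CHREBP and 194, 507, 364 and 234 in BOTH. CHREBP and BOTH again lay above every other library and overlapped each other. *Gbp5*, the prenylated member known for promoting NLRP3 inflammasome assembly, had 3, 5, 0 and 1 raw reads in BOTH, 1 read in CHREBP replicate 3 and 0 in the other 19 libraries. Because 3 counts, the number up to which 0 reads leave a transcript undetected, amount to between 2.02 and 4.24 normalized counts in these libraries, no fold change is given for *Gbp5*. Such limits cover counting error only.

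*Gbp4*, on chromosome 5, had 10.3, 4.84, 19.8 and 5.66 normalized counts in BSA and 1.32, 2.01, 4.47 and 3.11 in PAL. Its values were 4.49, 31.0, 49.4 and 33.6 in CON and 8.15, 9.56, 10.5 and 8.22 in BMAL1. They were 268, 170.4, 142 and 101 in CHREBP and 210.2, 552, 343 and 156 in BOTH. BSA and PAL did not overlap, and BMAL1 was a narrow group that lay between CON replicate 1 and the rest of CON.

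*Gbp6*, with the uncertain 3′ end, was counted at a few reads per library outside CHREBP and BOTH. It had 6.0, 2.90, 1.80 and 1.41 in BSA, 0, 2.01, 0 and 0 in PAL, 2.69, 2.70, 6.58 and 2.32 in CON and 0, 3.19, 0.958 and 3.66 in BMAL1. It had 29.9, 35.3, 16.2 and 13.3 in CHREBP and 32.1, 61.0, 56.6 and 34.6 in BOTH. These 8 libraries were above the other 16, as for the members with more reads.

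*Gbp9*, the remaining chromosome 5 member, was above the detection limit in every library, transfected or not. Its values were 81.4, 71.6, 86.6 and 66.5 in BSA and 39.6, 58.3, 54.8 and 50.5 in PAL, without overlap. In CON they were 57.5, 139.6, 168 and 112, and in BMAL1 55.7, 56.3, 67.0 and 82.2. CHREBP had 456, 316, 298 and 276, and BOTH had 509, 866, 655 and 308. The 8 libraries with *Chrebp* esiRNA were again the highest of the 24.

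**Figure D2:**
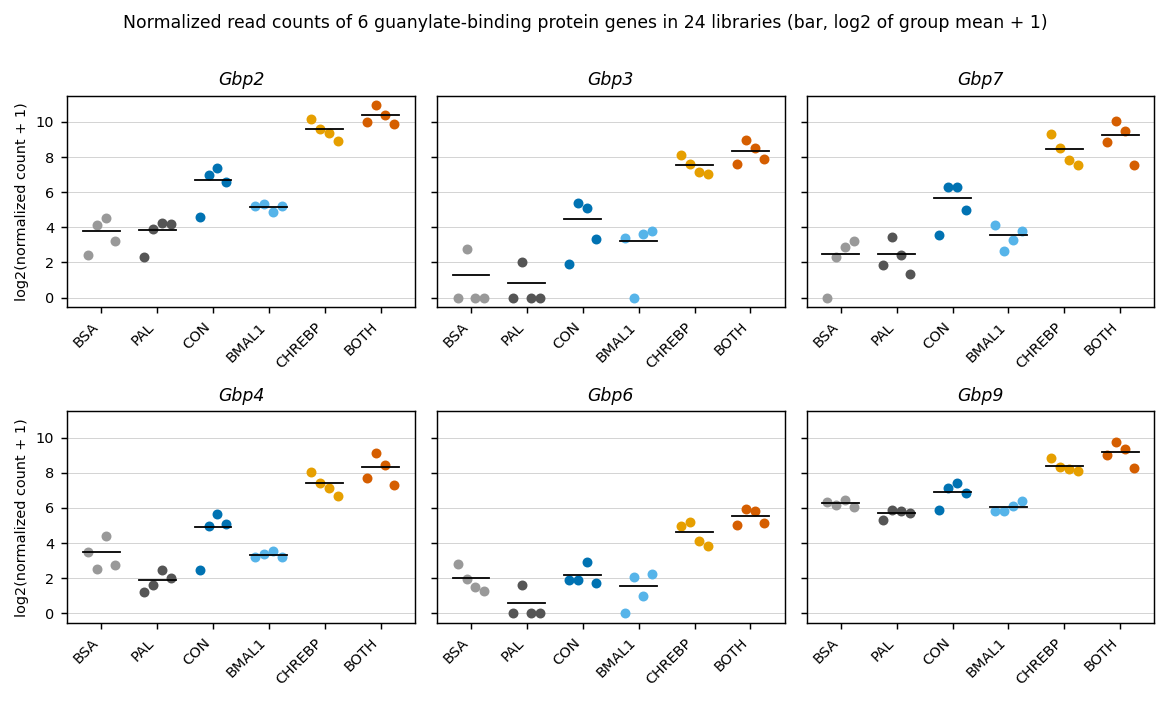
Normalized read counts of 6 members as log2(count + 1) in 24 libraries, with 1 point per library and a bar at the log2 of the group mean + 1. For each gene the 8 CHREBP and BOTH points lie above the other 16, and replicate 1 is the lowest CON library in *Gbp2*, *Gbp3*, *Gbp4*, *Gbp7* and *Gbp9*.

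Palmitate without esiRNA went with lower reads of the chromosome 5 member *Gbp9*, and *Gbp4* was also called lower of the 4 members tested. In PAL against BSA 7.75% of all genes tested fell and 6.78% rose. *Gbp9* fell from 76.5 ± 9.12 to 50.8 ± 8.13 (mean ± SD, n = 4 each), which was 0.667-fold (95% interval 0.501 to 0.888, DESeq2 *Padj* = 0.0497). *Gbp4* fell from 10.2 ± 6.89 to 2.73 ± 1.38, which was 0.270-fold (0.0993 to 0.732, DESeq2 *Padj* = 0.0774) on 43 against 11 raw reads, so that it passed the minimum of 25 summed counts only through BSA, and a count over the tested members is no measure of the family. *Gbp2* and *Gbp7* had log2 fold changes of 0.05 (SE 0.53) and 0.06 (SE 0.86), and the intervals of their fold changes ran from 0.507 to 2.13 and from 0.325 to 3.33. *Gbp6*, not fitted, had 13 reads in BSA and 2 in PAL, a ratio of 6.36 with a counting interval of 1.44 to 58.1. Neither call for *Gbp4* and *Gbp9* remained without BSA replicate 1, BSA replicate 3, PAL replicate 1 or PAL replicate 4, and 1 remained without PAL replicate 2. In bulk RNA, fewer cells with a transcript and less of it per cell cannot be told apart.

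Transfection with control esiRNA went with more reads of *Gbp2* and *Gbp9*, the 2 members that had 25 reads or more in PAL alone. In CON against PAL, where 1.66% of all genes rose and 0.958% fell, *Gbp2* was 7.63-fold higher (95% interval 3.04 to 19.1, DESeq2 *Padj* = 0.00182). *Gbp9*, from its higher base, was 2.34-fold higher (1.66 to 3.30, DESeq2 *Padj* = 0.000235). *Gbp3*, *Gbp4* and *Gbp7* were tested and called higher as well, but they passed the minimum of 25 summed counts only through CON, so their number is likewise no measure. *Gbp4* was 10.7-fold higher on 140 against 11 raw reads (95% interval 4.42 to 25.7, DESeq2 *Padj* = 3.82e-05). *Gbp7* was 10.5-fold higher on 247 against 18 (3.38 to 32.6, DESeq2 *Padj* = 0.00481). *Gbp3* had 112 reads in CON and 3 in PAL, a ratio of 31.4 with a counting interval of 10.5 to 155 (DESeq2 *Padj* = 0.0572). All CON libraries were above all PAL libraries in *Gbp2*, *Gbp4* and *Gbp7* and in 4.19% of all genes tested, while CON replicate 1 fell into the PAL range in *Gbp3* and *Gbp9*. *Gbp6*, not fitted here, had 17 reads in CON and 2 in PAL, a ratio of 7.15 (counting interval 1.70 to 63.8). The *Gbp3* call was lost in 6 of the 8 fits that left out a library, and held without PAL replicate 2 or CON replicate 1.

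With *Bmal1* esiRNA alone, members were lower than in CON on average, and none was called. BMAL1 received 100 nM and CON 200 nM, so *Bmal1* esiRNA and the lower total dose cannot be told apart here. DESeq2 called 0 of 5 tested members in BMAL1 against CON, where 0.529% of all genes fell and 0.271% rose, and edgeR also called 0. At an unadjusted p under 0.05, 4 of 6 fitted members were lower, against 3.4% of all genes fitted. The log2 fold changes were -2.20 (SE 0.68, DESeq2 *Padj* = 0.127) for *Gbp7*, -1.70 (SE 0.60, *Padj* = 0.268) for *Gbp4*, -1.55 (SE 0.47, *Padj* = 0.113) for *Gbp2*, -1.36 (SE 0.77, *Padj* = 0.758) for *Gbp3* and -0.87 (SE 0.36, *Padj* = 0.438) for *Gbp9*. *Gbp6* had -0.81 (SE 0.71) and no *Padj*. The groups overlapped in all 6 genes, and the SD of *Gbp2* was 59.8 in CON against 4.51 in BMAL1. This comparison turned on 1 control library. Without CON replicate 1, 4 members were called lower, namely *Gbp2* (-1.88, DESeq2 *Padj* = 5.74e-05), *Gbp4* (-2.06, *Padj* = 0.0122), *Gbp7* (-2.54, *Padj* = 0.017) and *Gbp9* (-1.10, *Padj* = 0.0916). Libraries of the other groups share the fit, and *Gbp2* was called without CHREBP replicate 1 or BOTH replicate 2, and *Gbp7* without BOTH replicate 4.

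With *Chrebp* esiRNA alone, all 6 members that could be tested rose against CON. DESeq2 called 6 of 6 higher, against 3.07% of all genes that rose and 0.892% that fell, and none of the 6 overlapped between the groups, where 5.57% of all genes tested were higher without overlap. *Gbp3* rose 8.54-fold (95% interval 3.17 to 23.0, DESeq2 *Padj* = 0.00146), from 21.5 ± 18.4 to 186 ± 68.6 normalized counts. *Gbp2* rose 7.54-fold (4.06 to 14.0, *Padj* = 3.83e-08), from 102 ± 59.8 to 773 ± 292. *Gbp7* rose 7.18-fold (2.99 to 17.2, *Padj* = 0.000724), *Gbp6* 6.54-fold (3.27 to 13.1, *Padj* = 1.29e-05) and *Gbp4* 5.73-fold (2.71 to 12.1, *Padj* = 0.000376). *Gbp9* rose 2.81-fold (1.76 to 4.49, DESeq2 *Padj* = 0.00106), and its mean went from 119 ± 47.0 to 336 ± 81.6. The median log2 fold change was 2.78 for the members and -0.00288 for all genes tested. Each of the 6 would have reached the 25 counts in CON and BMAL1 alone, *Gbp6* with exactly 25. A *Padj* also required passing independent filtering by mean count, and 11999 of 13883 fitted genes had one. *Gbp6*, at means of 3.57 in CON and 1.95 in BMAL1, may have passed only through CHREBP and BOTH, so its place in the count is uncertain. All 6 calls held in each of the 16 fits that left out a library. The CON dose was 200 nM and the CHREBP dose 100 nM, so the esiRNA target and the total dose cannot be told apart here either.

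The combination of esiRNAs, at the same total dose as CON, gave the highest mean of each member. In BOTH against CON 6 of 6 tested members rose, against 6.23% of all genes that rose and 3.9% that fell. *Gbp3* rose 14.9-fold (95% interval 5.55 to 40.2, DESeq2 *Padj* = 4.35e-06), *Gbp2* 12.9-fold (6.95 to 23.9, *Padj* = 7.53e-14), *Gbp6* 12.7-fold (6.44 to 25.02, *Padj* = 2.43e-11), *Gbp7* 12.3-fold (5.11 to 29.4, *Padj* = 1.06e-06) and *Gbp4* 10.6-fold (5.03 to 22.4, *Padj* = 3.87e-08). *Gbp9* rose 4.88-fold (3.06 to 7.79, DESeq2 *Padj* = 2.45e-09). None of the 6 overlapped between BOTH and CON, where 6.58% of all genes tested were higher without overlap, and the calls held in each of the 16 fits without a library. CHREBP and BOTH were both compared with the same CON libraries, so these sets of calls are not independent.

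At equal dose of 100 nM, CHREBP was compared with BMAL1. Here 6 of 6 tested members were higher in CHREBP, against 2.9% of all genes that were higher and 0.915% that were lower, with fold changes from 5.13 (*Gbp9*, 95% interval 3.18 to 8.27) to 33.1 (*Gbp7*, 13.2 to 83.0). In BOTH against BMAL1 6 of 6 were higher, against 7.04% of all genes, from 8.91-fold (*Gbp9*, 5.53 to 14.4) to 56.5-fold (*Gbp7*, 22.5 to 142). The 6 genes did not overlap in either comparison, and of all genes tested 5.05% in the former and 7.31% in the latter were higher without overlap. BOTH had the higher total dose of the latter pair.

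BOTH was set against CHREBP to ask what *Bmal1* esiRNA added to *Chrebp* esiRNA, but the total dose also differed, at 200 nM against 100 nM, and the contributions cannot be told apart. All 6 fitted members had a higher mean in BOTH, and DESeq2 called 0 of 5 tested, where 1.22% of all genes rose. At an unadjusted p under 0.05, 2 of 6 fitted members were higher, against 4.34% of all genes fitted, and edgeR called 0. *Gbp9* was 1.74-fold higher (95% interval 1.09 to 2.76, DESeq2 *Padj* = 0.396), *Gbp2* 1.71-fold (0.927 to 3.15, *Padj* = 0.662) and *Gbp4* 1.85-fold (0.890 to 3.85, *Padj* = 0.695). *Gbp7* had 1.71 (0.717 to 4.07, DESeq2 *Padj* = 0.823), *Gbp3* 1.75 (0.661 to 4.63, *Padj* = 0.836), and *Gbp6* 1.94 (1.15 to 3.27) without a *Padj*. The groups overlapped in all 6 genes, and the intervals of *Gbp2*, *Gbp3*, *Gbp4* and *Gbp7* also held decreases, with lower bounds from 0.661 to 0.927. Without BOTH replicate 4, *Gbp9* was called higher.

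**Figure D3:**
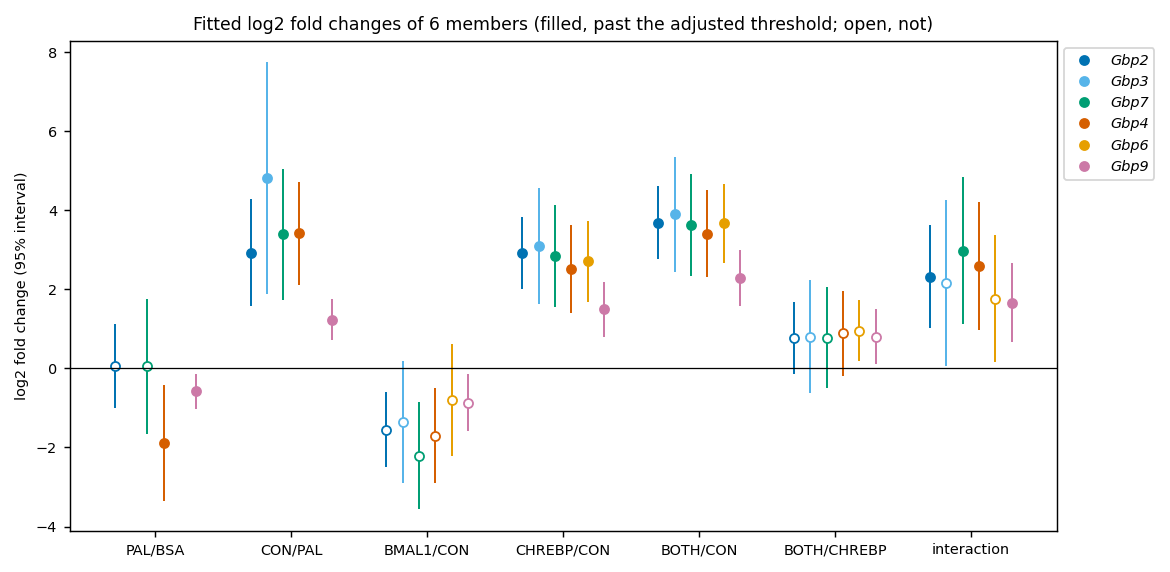
Log2 fold changes of 6 members with 95% intervals from DESeq2 in 6 comparisons and the interaction; filled points passed *Padj* under 0.1 and open points did not. All CHREBP/CON and BOTH/CON points are filled and above 1.4, and all BMAL1/CON and BOTH/CHREBP points are open, the former below 0 and the latter above it.

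The fitted *Bmal1* esiRNA effect had opposite signs in the absence and presence of *Chrebp* esiRNA, and the difference between these effects was tested as an interaction. Total esiRNA dose went from 200 nM in CON to 100 nM in BMAL1 and from 100 nM in CHREBP to 200 nM in BOTH, so the interaction and the dose cannot be told apart. DESeq2 called 4 of 5 tested members more positive with *Chrebp* esiRNA, where 1.79% of all genes were more positive and 0.398% more negative. The log2 differences were 2.98 (SE 0.93, DESeq2 *Padj* = 0.075) for *Gbp7*, 2.59 (SE 0.81, *Padj* = 0.0713) for *Gbp4*, 2.32 (SE 0.65, *Padj* = 0.0335) for *Gbp2* and 1.67 (SE 0.49, *Padj* = 0.0487) for *Gbp9*. *Gbp3* had 2.16 (SE 1.05, DESeq2 *Padj* = 0.494) and *Gbp6* 1.76 (SE 0.81) without a *Padj*. These calls depended on the fit. edgeR called 2 members and DESeq2 without the filter on low counts 1, and 0 were called without CON replicate 2 or without CON replicate 3. Leaving out BMAL1 replicate 2, CHREBP replicate 2, 3 or 4, or BOTH replicate 2 or 3 left 1 call, BMAL1 replicate 1, 3 or 4 left 2, and CON replicate 4 left 3.

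The order of the group means was BOTH, CHREBP, CON, BMAL1 from high to low among transfected cells for *Gbp2*, *Gbp3*, *Gbp4*, *Gbp6*, *Gbp7* and *Gbp9*. The neighbours BOTH and CHREBP, and CON and BMAL1, did not differ past the threshold in the 5 of these genes with a *Padj* (*Gbp6* had none), while CHREBP and CON did in all 6. Added over the 7 members, CPM (counts scaled to 1000000 gene counts per library) were 14.4 ± 2.75 for BSA and 9.53 ± 2.42 for PAL (SD, n = 4 each). They were 42.9 ± 22.8 for CON against 17.4 ± 2.40 for BMAL1, and 240.1 ± 90.9 for CHREBP against 412 ± 181 for BOTH. By library column, the sum ran from 6.13 to 18.3 in column 1, from 13.4 to 65.7 in column 2 and from 155 to 651 in column 3. PAL/BSA, BMAL1/CON and BOTH/CHREBP were the comparisons within a column, and the part of the column in the others was not tested.

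The make-up of the member reads differed between groups, mainly in the shares of *Gbp9* and *Gbp2*. *Gbp9* made up 71.1% ± 7.19 of the member reads in BSA and 71.4% ± 8.20 in PAL, 40.8% ± 10.9 in CON and 49.8% ± 4.11 in BMAL1, and 19.1% ± 3.27 in CHREBP and 18.4% ± 1.94 in BOTH (SD, n = 4 each). The share of *Gbp2* went from 11.4% ± 5.74 in BSA to 42.1% ± 1.46 in CHREBP and 42.7% ± 5.65 in BOTH. These are shares of counted 3′ reads and do not rank the abundance of one transcript against another. The shares of BSA and PAL rest on 36 to 152 member reads per library, and those of CHREBP and BOTH on 1074 to 5694.

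**Figure D4:**
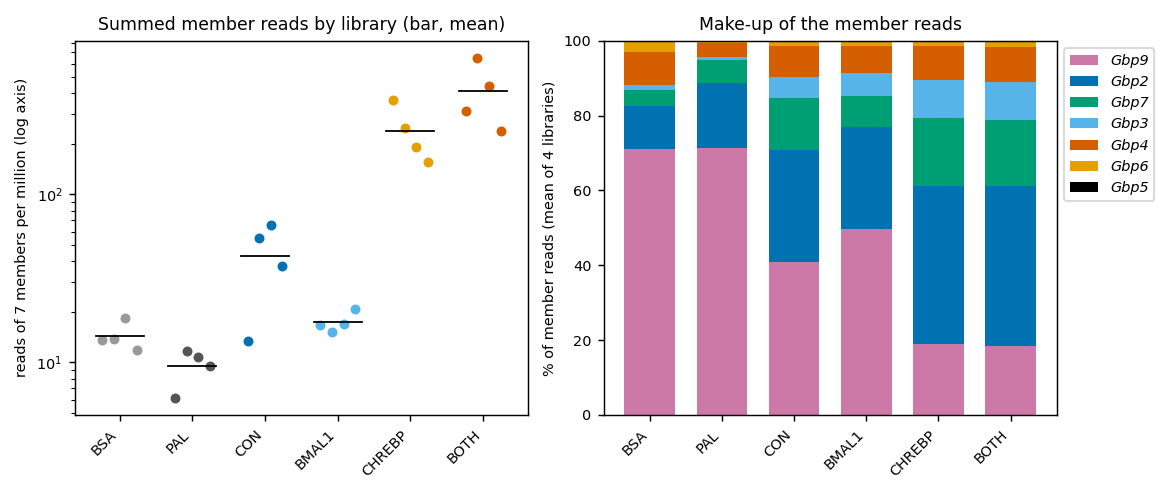
Left, summed CPM of the 7 members in each library (log axis, bar at the mean); right, the mean percentage of member reads from each member in the 6 groups. The sum is highest in BOTH and CHREBP, where *Gbp9* makes up under 20% of it against over 70% in BSA and PAL.

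The other 5 rows of the family were sparse. *Gbp8* and *Gbp11*, on chromosome 5, rose in CHREBP against CON, *Gbp8* by 1.91 on the log2 scale (SE 0.56, DESeq2 *Padj* = 0.0232) and *Gbp11* from 4 to 65 raw reads (DESeq2 *Padj* = 0.000862). In BOTH, *Gbp2b* rose too, from 2 to 55 reads, a ratio of 32.6 with a counting interval of 8.61 to 276. *Gbp11* and *Gbp2b* had 4 and 7 reads in CON and BMAL1 together and were fitted only because of their reads in CHREBP and BOTH. *Gbp10* had 1 read and the pseudogene *Gbp2-ps* 0. *Gbp10* shares all of its last 500 bases with *Gm43302* and *Gbp11* shares 32.6% of its windows, most of them with *Gbp8*.

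Genes next to the clusters were described too. Of 8 protein-coding genes within 250 kb, 5 were tested in CHREBP against CON and 0 were called by DESeq2, with log2 fold changes from -0.22 to 0.04 and 0 of 6 fitted at an unadjusted p under 0.05, against 3.07% of all genes that rose and 10.5% at that p. These few genes cannot show a difference from that background. In BOTH, where 6.23% of all genes rose, 1 of 5 did, *Kyat3* on chromosome 3, a kynurenine aminotransferase (log2 fold change 0.62, SE 0.20, DESeq2 *Padj* = 0.0269).

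The pathway around the GBPs was then described from lists of known genes. Among 11 interferon genes, only *Ifnb1* had enough reads to be fitted. *Ifnb1*, the type I interferon that most cells can make, had 5 raw reads over the 4 CON libraries and 0 over those of BMAL1. It had 17 over the CHREBP libraries and 77 over the BOTH libraries. With these 5 reads in CON and BMAL1 together, it was fitted only because of its reads in CHREBP and BOTH. It was called higher in BOTH than in CON (DESeq2 *Padj* = 1.01e-04) and was not called in CHREBP (*Padj* = 0.339). At equal dose, CHREBP was called higher than BMAL1 (DESeq2 *Padj* = 0.0134), at least 1.33-fold when each BMAL1 library is set to the limit of 3 counts. *Ifng* had 0 reads in every library.

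Of 16 interferon receptor and signalling genes, 8 rose in CHREBP against CON, 8 in BOTH against CON and 7 in CON against PAL (15 tested in each), while 2 fell in BMAL1 against CON and 4 in PAL against BSA (14 tested in each), and 5 of 15 were more positive in the interaction. In CON against PAL *Nlrc5* and *Usp18* were tested only because of their reads in CON, and 5 of the other 13 rose. Of all genes tested, 3.07%, 6.23% and 1.66% rose in the first 3 of these comparisons, 0.529% and 7.75% fell in the next 2, and 1.79% were more positive in the interaction. *Irf9*, a transcription factor of the interferon response, rose by 0.94 on the log2 scale in CHREBP (SE 0.20, DESeq2 *Padj* = 0.000225) and *Irf1* by 0.86 (SE 0.13, *Padj* = 4.37e-09). *Usp18*, a negative regulator of the type I receptor, rose by 2.87 in CHREBP (SE 0.56, DESeq2 *Padj* = 3.79e-05) and fell by 2.79 in BMAL1 (SE 0.57, *Padj* = 0.00132). In CON its replicate 1 (35.0 normalized counts) was below all BMAL1 libraries (47.8 to 64.0), and the other 3 CON libraries (286 to 579) were above them. *Ifngr1*, a subunit of the interferon gamma receptor, was not called in CHREBP (0.07, SE 0.06, DESeq2 *Padj* = 0.778).

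IRGs are the GTPases whose products work on the same vacuoles as GBPs. Of 8 listed IRGs, 7 were found and 6 tested, and all 6 rose in CON against PAL, in CHREBP against CON and in BOTH against CON, while 2 fell in BMAL1 against CON, with the same shares of all genes as background. In CON against PAL *Iigp1* and *Tgtp1* were tested only because of their reads in CON, and the other 4 rose. The median log2 fold change of the 6 in CHREBP was 2.14. *Irgm1*, a regulatory IRG, rose by 1.34 in CHREBP (SE 0.18, DESeq2 *Padj* = 8.11e-11), *Ifi47* by 1.5 (SE 0.22, *Padj* = 4.7e-09) and *Igtp* by 2.5 (SE 0.44, *Padj* = 2.52e-06).

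The machinery that modifies or places GBPs was described from further short lists. Of 10 genes of the ATG conjugation system, which guides GBPs and IRGs to vacuoles, DESeq2 called 0 in CHREBP against CON and 0 in BOTH against CON, with log2 fold changes from -0.21 to 0.26 in CHREBP and 2 genes at an unadjusted p under 0.05 in each comparison, where 10.5% and 17.5% of all genes fitted were. These 10 genes cannot show a difference from that background. In the other contrasts *Gabarapl1* fell in PAL against BSA, where 7.75% of all genes fell. *Gabarap* rose in CON against PAL (1.66% of all genes) and *Atg16l1* was higher in BOTH than in BMAL1 (7.04%). Of 6 prenylation enzymes, 0 were called by DESeq2 in any of the 9 contrasts and 0 had an unadjusted p under 0.05. Per contrast, 0.219% to 7.75% of all genes were called in a direction, so these 6 genes cannot show a difference from that background. In the inflammasome list, 2 of 8 genes were tested in CHREBP and DESeq2 called 0, against 3.07% of all genes that rose and 0.892% that fell. At an unadjusted p under 0.05 there was 1 of 3 fitted, against 10.5% of all genes, and so few genes cannot show a difference. In BOTH against CON 3 of 3 fitted genes, *Casp4* among them, were at an unadjusted p under 0.05, against 17.5% of all genes fitted. In BOTH, where 6.23% of all genes rose, *Gsdmd*, which encodes a pore-forming protein, rose (log2 fold change 0.36, SE 0.10, DESeq2 *Padj* = 0.00678). *Casp4*, a sensor of cytosolic lipopolysaccharide, was also called there (DESeq2 *Padj* = 0.00198), but it was fitted only because of its reads in CHREBP and BOTH. It was sparse, with 50 raw reads in BOTH and 3 in CON, a ratio of 19.8 with a counting interval of 6.38 to 99.1. It had 19 reads in BSA, 2 in PAL, 13 in BMAL1 and 31 in CHREBP. *Nlrp3* and *Il1b* had 0 reads in all libraries.

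The genes whose profile over the 6 groups was closest to that of the members were sought among 9364 genes whose normalized counts averaged 50 or more. A profile was the group means of log2(normalized count + 1) less their average, and distance was the root mean square difference. *Mndal* (0.154), *Ifi203* (0.182), *Ube2l6* (0.186) and *Tgtp1* (0.198) were closest to the mean of 6 members, *Gbp5* left out. *Mndal* and *Ifi203* belong to the interferon-inducible p200 family, *Ube2l6* encodes the conjugating enzyme for ISG15, and *Tgtp1* is an IRG. For single members the closest genes were *Trim30d* for *Gbp2* (0.0984), *Irf7* for *Gbp3* (0.226), *Ifi203* for *Gbp4* (0.324), *Psmb9* for *Gbp6* (0.206), *Gbp2* for *Gbp7* (0.191) and *Ifi47* for *Gbp9* (0.116). The distances rest on 6 group means of the same 24 libraries and carry no test.

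**Figure D5:**
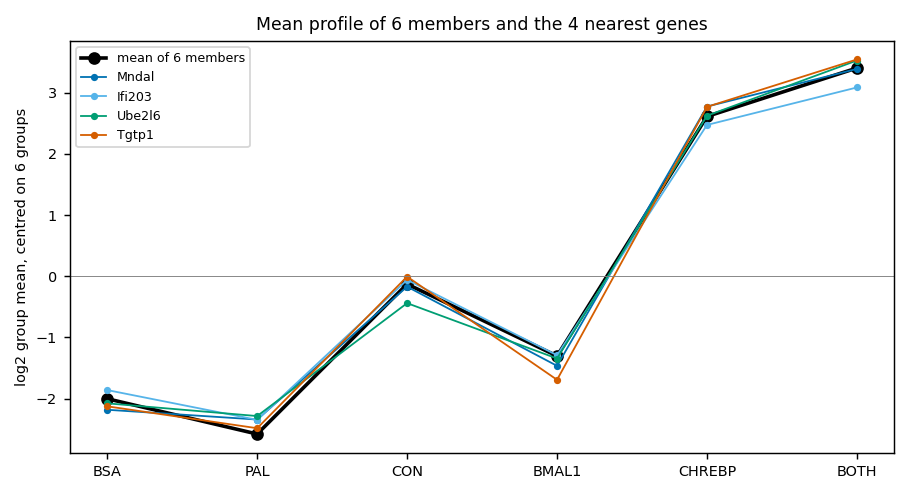
Group means of log2(normalized count + 1), centred on their average over 6 groups, for the mean of 6 members (black) and the 4 closest genes. All 5 lines are lowest in PAL, below 0 in CON, lower in BMAL1 than in CON, and highest in BOTH.

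Transcripts of the hepatocyte list were detected, and several markers that define other liver cell types had no reads. All 8 hepatocyte markers were detected, and their summed normalized count ran from 48381 to 62806 over the libraries. The keratins *Krt8* and *Krt18*, which other simple epithelia also express, made up 71.6% to 83.9% of that sum, while albumin (*Alb*) was at 89.4 to 273 and *Apoa1* at 2.21 to 14.4 normalized counts. Hepatocyte markers moved between some of the groups compared: 4 of 8 tested fell and 2 rose in PAL against BSA (7.75% and 6.78% of all genes), 1 rose and 1 fell in CON against PAL (1.66% and 0.958%), 1 of 7 rose in BMAL1 against CON (0.271%) and DESeq2 called 0 of 8 in CHREBP against CON, with 3 (*Trf*, *Hnf4a* and *Serpina1a*, all lower) at an unadjusted p under 0.05. In BOTH against CON *Trf*, *Hnf4a* and *Serpina1a* fell, by 0.28, 0.17 and 0.35 on the log2 scale (DESeq2 *Padj* = 0.00234, 0.0794 and 0.0312), where 3.9% of all genes fell. Compared with BMAL1, 4 of 8 were lower in BOTH (4.51%) and 1 of 8 in CHREBP (0.915%). Their part in the GBP results was not tested. Of the macrophage list, *Adgre1* and *Clec4f* had 0 reads in every library, and the summed level, nearly all of it from *Cd14*, was 865 to 951 in BSA and 560.2 to 668 in PAL. It ran from 599.6 to 662 for CON, 531 to 654 for BMAL1, 636 to 709 for CHREBP and 572 to 775 for BOTH. *Cd68* had 5 to 27 raw reads in every library, *Csf1r* 0 to 17 and *Lyz2* 0 to 3. *Cd3e*, *Ncr1* and *Nkg7*, markers of lymphocytes, and *Cdh5* and *Kdr* of endothelium, had 0 reads in all 24 libraries. *Ptprc*, expressed by leukocytes in general, had 0 to 8 reads per library, summing to 11 each for PAL and CON, 10 for BOTH, 9 for CHREBP, 3 for BMAL1 and 1 for BSA. *Pecam1*, of endothelium, had 7 reads in 1 CON library, 1 in PAL, 2 in BMAL1 and 0 in the other groups. Of the stellate or fibroblast list, *Lrat* and *Pdgfrb* were at 0, and the sum was 9.67 at most in any library.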

How the data were processed

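Libraries were made with the MERCURIUS BRB-seq kit from total RNA and sequenced at the 3′ end. The authors demultiplexed the reads, aligned them to mm10 with STAR and counted them with HTSeq, with featureCounts also named. What was deposited are raw read counts, 1 whole number for each Ensembl gene in each library, neither normalized nor pooled. Versions, annotation release, strand and handling of molecular identifiers are not given in the sources used here, so overlapping and near-identical genes are uncertain. Intervals of DESeq2 folds rest on the spread between libraries, and those named counting intervals cover counting error only. Per library, 24.9% to 28.0% of reads were not aligned and 5.11% to 6.47% fell in no gene, and these summary lines were left out.

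Groups were taken from the labels. Genes whose counts summed to 25 or more in a fit were tested with the Wald test of DESeq2 1.42.0 (R 4.3.3) and called at a Benjamini-Hochberg adjusted p (*Padj*) under 0.1 over all genes tested. CPM are counts scaled to 1000000 gene counts per library. PAL with BSA, and CON with PAL, were fitted as 8 libraries each, and the 4 esiRNA groups as 16. Members in a comparison count as tested where DESeq2 gave a *Padj*. Alternatives were edgeR 4.0.16, TMM scaling, no low-count filter, a replicate block, other sets of fitted groups and each library left out. The named genes were the members, the targeted genes, the other *Gbp* rows, list genes with the most reads or a stated role, and the closest profiles. *Kyat3*, *Casp4*, *Nlrc5*, *Iigp1*, the conjugation, hepatocyte and other-cell genes named for a call or for few or 0 reads fell outside that rule and were chosen after their values were seen. A few listed or named genes are not reported here. Members and lists were chosen with earlier results of these data known. Gene positions came from GENCODE M21 (GRCm38), which held 55141 of the 55487 identifiers and all 7 members. The test scripts were checked on simulated counts.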

Additional observations from a re-analysis of the deposited data

Results flagged for a closer look

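The effect of *Bmal1* esiRNA on 4 members differed between cells without and with *Chrebp* esiRNA in the DESeq2 interaction test, which cannot be told apart from total esiRNA dose (200 nM in CON and BOTH, 100 nM in BMAL1 and CHREBP). The log2 difference was 2.32 for *Gbp2*, 2.59 for *Gbp4*, 2.98 for *Gbp7* and 1.67 for *Gbp9*, each more positive with *Chrebp* esiRNA. Of all genes tested, 1.79% were more positive and 0.398% more negative. With edgeR 2 members were called, and with DESeq2 without the low-count filter 1. Without CON replicate 2 or without CON replicate 3, 0 of the 4 were past the threshold. In 1 of the 41 sets of 4 libraries examined for a value far from the rest, *Gbp6* in CON, replicate 3 (8 raw reads) lay above the other 3 libraries (2 to 4 reads), with a gap of 0.911 of the range of the set, past Dixon's limit for 4 values. Chance gives about 1 such value in 20 sets.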

How the results depend on the processing

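The 6 calls in each of CHREBP against CON, BOTH against CON, BOTH against BMAL1 and CHREBP against BMAL1 held under edgeR, TMM scaling, no low-count filter, a replicate block, other sets of fitted groups and each library left out. The count of members called higher in CON against PAL was 5 in each alternative that kept all libraries and 4 to 5 with a library left out, 3 of the 5 having passed the count minimum only through CON. Members called lower in PAL against BSA (2) went to 1 without the low-count filter, 1 with all 24 libraries in the fit and 0 to 2 with a library left out. Members called lower in BMAL1 against CON (0) went to 1 with the 2 groups fitted alone and 0 to 4 with a library left out, and members called higher in BOTH against CHREBP (0) to 0 to 1. Members called in the interaction (4) went to 2 with edgeR, 1 without the low-count filter and 0 to 4 with a library left out. Apart from the libraries named beside these results, the cause of a lost call was not tested. In PAL against BSA the log2 fold change of *Gbp2* turned negative without BSA replicate 1 (-0.25), BSA replicate 4 (-0.09), PAL replicate 3 (-0.11) or PAL replicate 4 (-0.10) and ran from -0.25 to 0.48 over the libraries left out, and that of *Gbp7* without BSA replicate 1 (-0.39), BSA replicate 2 (-0.02) or PAL replicate 2 (-0.67), with a range of -0.67 to 0.48; neither gene was called. No other fold change of a member changed sign in the alternatives run. The replicate block left 0 members called in PAL against BSA and 1 in the interaction, and changed no other call. Same-numbered libraries deviated together little on average (mean correlation -0.0332 to 0.0907 over the contrasts, single pairs -0.183 to 0.223), so the numbers were not treated as pairs. Low counts limit *Gbp5* in every group, *Gbp3* and *Gbp6* outside CHREBP and BOTH, and *Gbp4* and *Gbp7* in BSA and PAL.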

Other observations

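In the 3 groups CON, CHREBP and BOTH, a library tended to hold the same place across members. In BOTH, replicate 2 was the highest library in 7 of 7 members. In CON, replicate 1 was the lowest in 5 members and replicate 3 the highest in 5. In CHREBP, replicate 1 was the highest in 5 members and replicate 4 the lowest in 6. The total gene counts of these libraries were 8745042 for BOTH replicate 2, 8425694 for CON replicate 1, 9262410 for CON replicate 3, 7058812 for CHREBP replicate 1 and 6923225 for CHREBP replicate 4, and a relation to depth was not tested. In BSA, PAL and BMAL1, no library was the lowest in more than 3 members or the highest in more than 4. Tied libraries were not counted. *Gbp5* was at 0 throughout these groups and CON, and *Gbp3* and *Gbp6* had reads in only 1 PAL library, so the counts are not comparable between groups.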
